A study of Mus musculus with 12 samples.

Results

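The genes described here are 10 genes whose human counterparts are mutated in primary microcephaly or a related disorder: Aspm, Cdk5rap2, Cenpj, Wdr62, Mcph1, Stil, Cep152, Cep63, Nde1 and Cep135. They were taken by name, and each was read through every probe set of the mouse expression array that the platform annotation gives to that gene and no other. This gave 19 probe sets for 10 of the 18194 genes named by such probe sets. Aspm had 5, Cdk5rap2 had 3, Wdr62, Mcph1 and Cep63 had 2 each, and the other 5 genes had 1 each. No probe set named a member together with another gene. For each gene the brightest probe set by mean over all arrays is reported first. Of the 19, 14 passed the filter on dim probe sets, including the brightest of all 10 genes. The 5 that did not pass were second or further probe sets of Aspm, Cdk5rap2, Wdr62, Mcph1 and Cep63.

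The study profiled total RNA of C57BL/6 mouse cells after knockdown of Zfp335 at E14.5; its human counterpart ZNF335, a zinc finger protein, is itself a microcephaly gene. The 12 arrays formed 4 groups of 3: Zfp335 knockdown at 5 days, control knockdown at 5 days, Zfp335 knockdown at 1 day and control knockdown at 1 day. The series design speaks of short hairpin RNA and of sorted cells, the titles of siRNA, and the control samples are described as neurons. Stage E15.5 and harvest at P0 are written on every sample, so only the time label separates 1 day from 5 days. Whether replicates stem from different animals is not stated in the labels, and a p-value here reflects variation between the deposited samples, some or all of which may be technical.

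Neural progenitors divide at the ventricular surface of the embryonic cortex, and the plane and the speed of their mitosis depend on the centrosome and the spindle. A new centriole forms beside each old one once per cell cycle, the centrioles gather pericentriolar material that nucleates microtubules, and the paired centrosomes become the spindle poles. Loss of genes in this pathway prolongs mitosis, costs progenitors and leaves a small brain, and many of the genes are transcribed mainly in cycling cells.

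The promoters of members that moved between the time points, and of Cep63, which was not called after quantile normalization, are printed to show the cell cycle promoter elements searched for. They are the first listed RefSeq promoter window of each gene on GRCm38.p6. Each runs from 250 bases before to 50 bases after that transcription start, 5′ to 3′ along the gene's strand. Capitals mark CCAAT, the core of the box bound by NF-Y, and TTTGAA, the cell cycle genes homology region. A match on the reverse strand reads ATTGG or TTCAAA.
Aspm, chr1:139454523-139454822, plus strand: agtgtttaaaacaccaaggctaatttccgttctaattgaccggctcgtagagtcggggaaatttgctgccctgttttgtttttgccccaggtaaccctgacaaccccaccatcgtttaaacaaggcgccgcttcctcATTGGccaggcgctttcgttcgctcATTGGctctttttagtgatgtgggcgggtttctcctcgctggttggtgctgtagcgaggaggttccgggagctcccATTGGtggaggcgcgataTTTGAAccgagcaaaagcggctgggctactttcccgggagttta
Nde1, chr16:14163025-14163324, plus strand: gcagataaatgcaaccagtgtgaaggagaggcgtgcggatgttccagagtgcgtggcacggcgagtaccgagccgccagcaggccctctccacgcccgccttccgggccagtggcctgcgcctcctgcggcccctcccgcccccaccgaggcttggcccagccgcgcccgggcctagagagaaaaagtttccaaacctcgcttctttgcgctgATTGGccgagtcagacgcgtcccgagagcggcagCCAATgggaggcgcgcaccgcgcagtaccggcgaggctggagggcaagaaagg
Cenpj, chr14:56571797-56572096, minus strand: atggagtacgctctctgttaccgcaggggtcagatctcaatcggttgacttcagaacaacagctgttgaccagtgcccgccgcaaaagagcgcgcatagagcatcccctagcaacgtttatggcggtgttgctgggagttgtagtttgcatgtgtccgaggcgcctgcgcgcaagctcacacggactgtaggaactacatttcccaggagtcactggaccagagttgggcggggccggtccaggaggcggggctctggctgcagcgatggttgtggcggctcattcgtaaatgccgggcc
Cep63, chr9:102626075-102626374, minus strand: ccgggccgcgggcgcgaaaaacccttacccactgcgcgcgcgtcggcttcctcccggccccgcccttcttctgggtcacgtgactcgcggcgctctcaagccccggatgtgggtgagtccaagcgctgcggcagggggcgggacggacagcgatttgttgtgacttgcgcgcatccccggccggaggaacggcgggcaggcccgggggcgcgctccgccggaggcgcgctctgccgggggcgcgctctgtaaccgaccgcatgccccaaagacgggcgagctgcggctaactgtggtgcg

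The Aspm window held 3 CCAAT matches, all on the reverse strand, and TTTGAA at bases 7 to 12 after the start. Nde1 held 2 CCAAT matches, while the windows of Cenpj and Cep63 held neither motif. The Cenpj window ends at 56572096 and the Cep63 window at 102626374, while these minus-strand genes reach to 56575489 and 102626564. The Aspm window begins at 139454523, where the gene begins at 139454188. These windows, and that of Wdr62, lie inside their genes, and the start at the outer end of each gene was not searched. Over the 9 members with a promoter in the table, CCAAT on either strand was found in 6, against 37.9% of the first promoters of 27025 genes, and TTTGAA in 2, Aspm and Cdk5rap2, against 18.1%. The E2F form TTCCCGC was found in 3 of 9, Wdr62, Stil and Cep152, against 4.66% of genes, and the form TTGGCGC in 0 of 9, against 2.54%. A match describes letters in a 300-base window and does not show a bound site. No sequence is printed for Mcph1.

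Several facts about the arrays bear on every value below. The description field of the 6 samples at 5 days contradicts their titles and source names as to which were knockdowns. Titles were followed, and under the descriptions every 5-day knockdown difference would change sign. The 1-day arrays fell into 2 sets by the signal of the spiked hybridisation control bioB (log2 signal of 11.2 to 11.4 and of 8.52 to 9.89): knockdown 2, knockdown 3 and control 2 had strong controls, and knockdown 1, control 1 and control 3 had weak ones. Between these sets 75.2% of all 27022 kept probe sets gave non-overlapping values. The recorded station was 7 for all 1-day knockdowns and 8 for all 1-day controls, so station and knockdown cannot be told apart at 1 day. At 5 days it was 4 for the knockdowns and control 1, and 5 for controls 2 and 3. Control 2 at 5 days was the only array of its chip lot. The 5-day and 1-day arrays came from different chip lots, and the 5-day arrays had a wider range of deposited signal: the 75th percentile was 498 to 625 at 5 days and 222 to 292 at 1 day, with medians of 94.8 to 147 and 85.1 to 124. Among the 5-day arrays, knockdown 2 had an Actb 3′ to 5′ signal ratio of 8.76, against 1.51 to 1.93 in the other 5, a measure of RNA integrity. Zfp335 itself, with 1 probe set, was not shown to differ: its log2 fold change was -0.64 at 5 days (SE 0.74, limma adjusted p = 1) and -0.64 at 1 day (SE 0.74, limma adjusted p = 0.832). Of the markers checked for the labelled cells, 13 of 14 neuronal and 10 of 10 radial glial genes passed the filter. So did 11 of 12 microglial, 7 of 8 astrocyte and 12 of 15 endothelial and pericyte genes, but only 1 of 9 erythroid genes. Over the array 12263 of 18194 genes had a kept probe set, so passing does not show which cells were present.

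None of the 10 genes was called between knockdown and control at 5 days. Values are log2 signals, that is log2 of the quantile-normalized deposited intensity plus 16, so fold changes of dim probe sets are understated. Aspm, which holds microtubule minus ends at the spindle pole, had 8.96, 10.24 and 9.35 in the 5-day knockdowns, against 9.15, 9.22 and 9.69 in the 5-day controls. The groups overlapped, and the highest Aspm value was that of knockdown 2, the array with the high 3′ to 5′ ratio. Nde1, which binds Lis1 and the motor dynein, had 9.40, 8.45 and 9.32 in the 5-day knockdowns, against 9.09, 9.15 and 9.27 in the 5-day controls, with its lowest value in the same array. Aspm differed by 0.16 (95% interval -0.63 to 0.96) and Nde1 by -0.12 (-0.78 to 0.54). Without knockdown 2 both signs changed, to -0.20 for Aspm and 0.19 for Nde1.

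Stil had the largest difference of the 10 at 5 days. Stil joins Sass6 in the cartwheel from which a new centriole grows. Its log2 signal was 7.81, 8.41 and 8.28 in the 5-day knockdowns, against 7.55, 8.11 and 7.94 in the 5-day controls, and the groups overlapped. The log2 fold change was 0.30 (95% interval -0.23 to 0.83, limma adjusted p = 1, exact two-sided permutation p = 0.3; 3 against 3 arrays cannot go below 0.1). The other centriole genes were nearer to 0: Cep63 and Cep152, partners in the ring around the mother centriole that brings in the kinase Plk4, had 0.18 and 0.10. Cep135, which ties the cartwheel to the centriole wall, had -0.002. Cenpj, a tubulin-binding protein that sets centriole length, had -0.02, and its narrow interval (-0.44 to 0.41) leaves out changes of more than about that size on this scale.

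In all, 0 of the 14 kept member probe sets were called by limma at 5 days at an adjusted p of 0.05, and 0 of 14 had an unadjusted p under 0.05. Over the array 0% of 27022 probe sets were called and 34 (0.126%) had an unadjusted p under 0.05. For each probe set the fit takes 1 spread shared by all 4 groups. P-values and intervals at 5 days therefore also carry the gap between the 1-day array sets. Cep152 had an SE of 0.57, with SDs of 0.44 and 0.35 in the 5-day knockdowns and controls, but 1.01 and 1.00 at 1 day. In a fit of the 5-day arrays alone 0 of 14 member probe sets and 0% of the array were called. The 10 brightest probe sets had a median log2 fold change of 0.10, with 4 lower and 6 higher, against a median of -0.01 over all kept probe sets. The knockdowns and control 1 were scanned on one scanner and controls 2 and 3 on another. With scanner as a block, which compares the knockdowns with control 1 alone, Wdr62 had 0.55, Cep135 0.56 and Cenpj 0.09, each of the opposite sign to its value without the block, and 0 probe sets were called. Markers of other cells differed between arrays within both groups: the mean log2 level of 11 microglial genes ran from 7.53 to 10.96 in the knockdowns and from 7.85 to 10.12 in the controls. Their part in the members' values was not tested.

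At 1 day 0 of 14 member probe sets were called either, and 0% of 27022 on the array. No member probe set had an unadjusted p under 0.05, while 120 of all kept probe sets did. Here 9 of the 10 brightest probe sets were lower in the knockdowns, with a median of -0.26, where the median of all kept probe sets was -0.10 and 58.7% of them were lower. The low values fell mostly on arrays of the set with strong hybridisation controls. Wdr62, a spindle pole protein, had 7.63, 5.73 and 5.81 in the 1-day knockdowns, against 7.75, 6.07 and 7.61 in the 1-day controls. In each group the arrays with weak hybridisation controls were the high ones, and the group with more strong-control arrays had the lower mean.

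**Figure D1:**
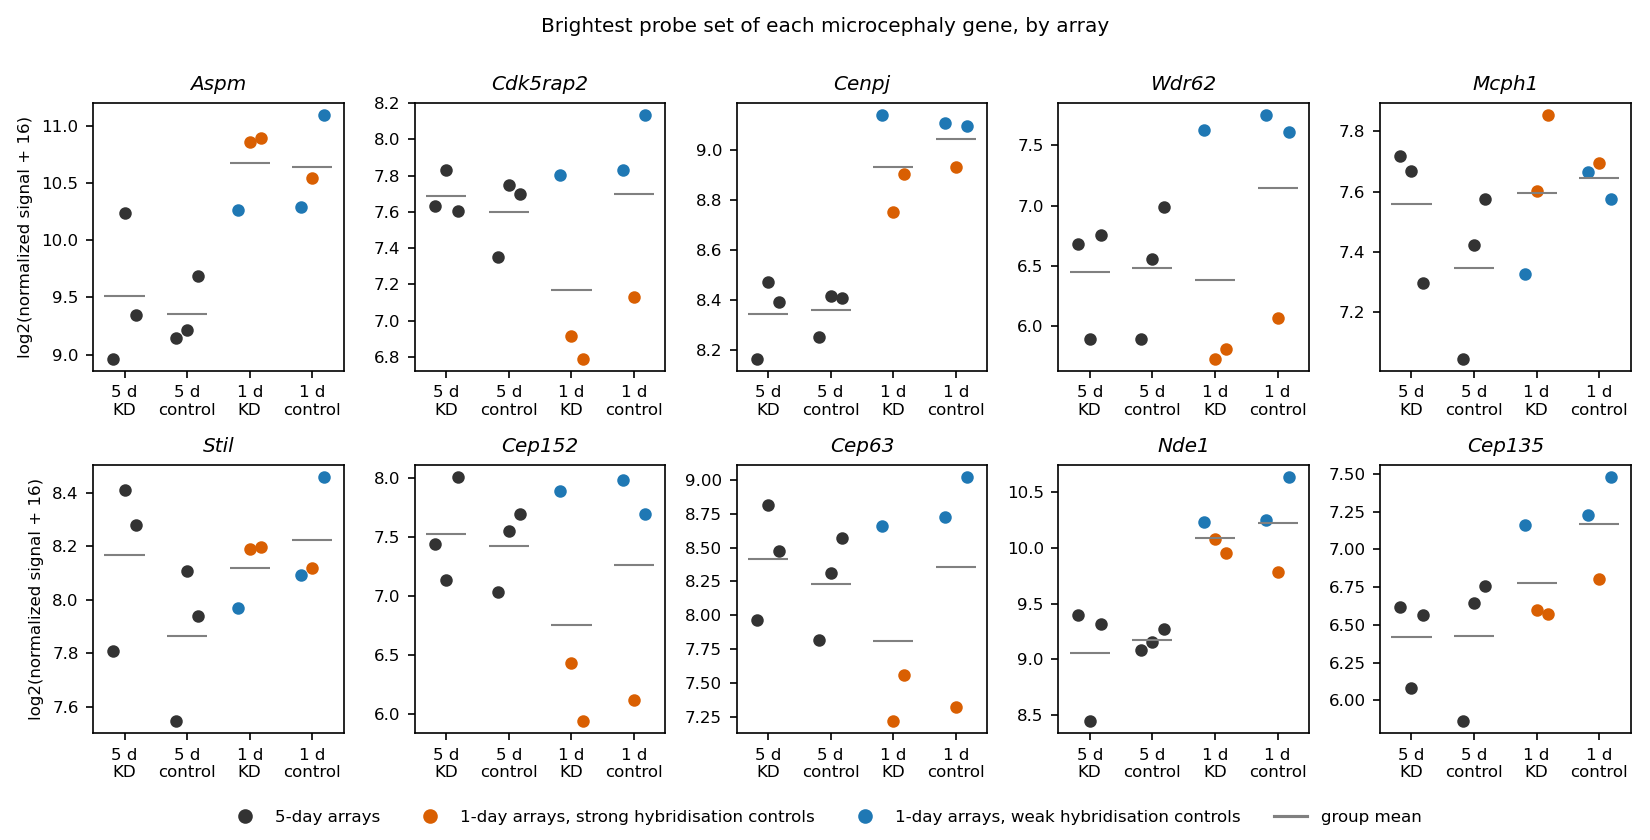
Log2 signal (quantile-normalized deposited intensity plus 16) of the brightest probe set of each of the 10 genes on the 12 arrays, by group, with group means as grey lines; panels have separate y axes. At 1 day the arrays with strong hybridisation controls (orange) lie below those with weak ones (blue) for Cdk5rap2, Cenpj, Wdr62, Cep152, Cep63, Nde1 and Cep135. On this scale the 5-day arrays lie below the 1-day arrays for Aspm, Cenpj and Nde1, a direction that changes when arrays are scaled to the same median.

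The same held for the Plk4-recruiting pair. Cep152 had 7.88, 6.43 and 5.94 in the 1-day knockdowns, against 7.98, 6.12 and 7.70 in the 1-day controls. Cep63 had 8.66, 7.22 and 7.56, against 8.72, 7.32 and 9.02. For both genes the low arrays were knockdowns 2 and 3 and control 2. Cdk5rap2, which anchors the gamma-tubulin ring complex in the pericentriolar material, had 7.81, 6.91 and 6.79, against 7.83, 7.13 and 8.14, with the same 3 arrays low. As differences between array sets, strong minus weak, Wdr62 had -1.80, Cep152 -1.69, Cep63 -1.43, Cdk5rap2 -0.98 and Cep135 -0.63. Aspm with 0.21, Mcph1 with 0.20 and Stil with -0.005 were the 3 genes whose brightest probe sets overlapped between the array sets. The further Aspm probe sets did not overlap, at -1.52 for 1452459_at, -0.94 for 1458873_at, -1.48 for 1458560_at and -1.32 for the dim 1441520_at. The dim Mcph1 1439115_at, at 1.12, did not overlap either. In all 11 of 14 kept member probe sets did not overlap between the sets, a share near the 75.2% of the whole array.

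Within each set the knockdown differences of Wdr62, Cep152, Cep63 and Cdk5rap2 were 0.30 or less in size. Among strong-control arrays (knockdowns 2 and 3 against control 2) Wdr62 differed by -0.30, Cep152 by 0.07, Cep63 by 0.07 and Cdk5rap2 by -0.28. Among weak-control arrays (knockdown 1 against controls 1 and 3) the same genes differed by -0.06, 0.05, -0.21 and -0.18. Without the set in the fit their values at 1 day were -0.76, -0.51, -0.54 and -0.53, each with limma adjusted p = 0.832. With the set as a block they were -0.18, 0.06, -0.07 and -0.23, each with limma adjusted p = 1. Aspm differed by 0.33 among strong-control and by -0.43 among weak-control arrays, and Nde1 by 0.23 and -0.21, so both changed sign between the sets. Their values were 0.03 and -0.14 without the block and -0.05 and 0.01 with it. The mean level of the microglial markers moved with the sets as well, at 7.44, 5.64 and 5.68 in the 1-day knockdowns and 8.13, 5.83 and 7.95 in the 1-day controls, and its part in the members' values was not tested.

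**Figure D2:**
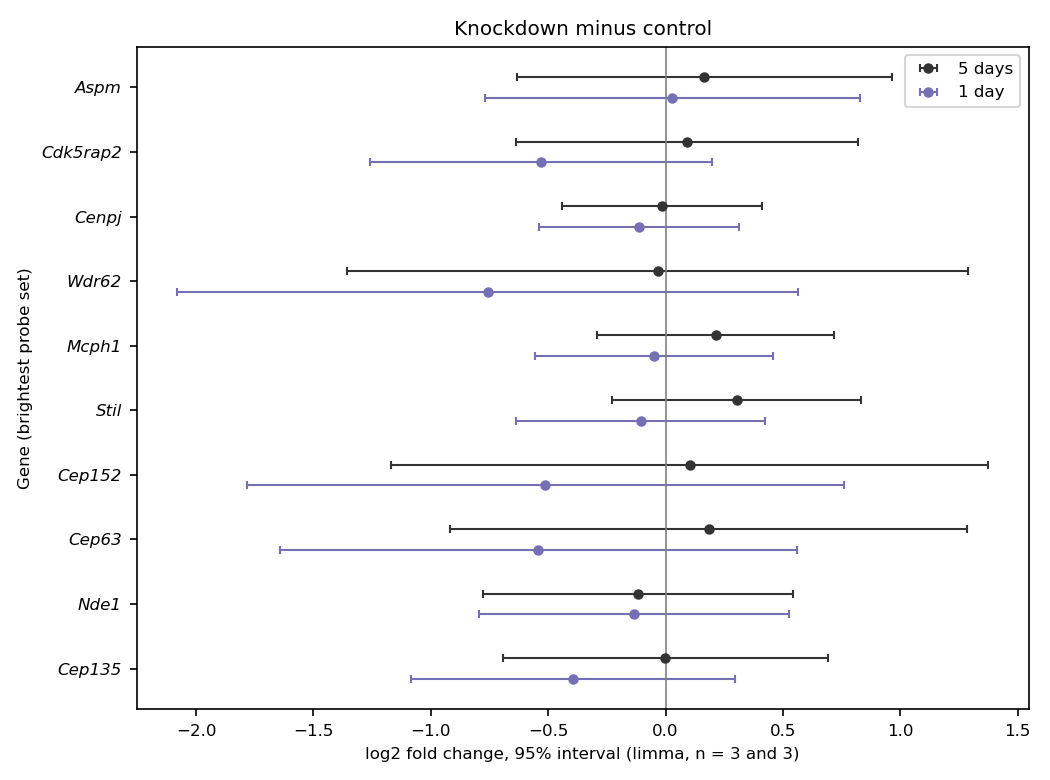
Log2 fold change of the brightest probe set of each gene, knockdown minus control, with 95% limma intervals, at 5 days (black) and 1 day (purple), 3 against 3 arrays each. All intervals include 0; the wide intervals of Wdr62, Cep152 and Cep63 belong to genes that differ by 1.43 or more between the 2 sets of 1-day arrays.

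The difference between the knockdown effects, 5 days minus 1 day, was above 0 for all 10 brightest probe sets. Their median was 0.40, with a range from 0.02 for Nde1 to 0.73 for Cep63. Over all kept probe sets the median was 0.04, and 46.3% lay below 0. Of the 14 kept member probe sets 13 lay above 0, and Cdk5rap2 1443976_at had -0.35. No member probe set was called, 0 of 14 had an unadjusted p under 0.05, and over the array 0% of 27022 were called by limma. The sign of these values depends on the titles at 5 days and on the makeup of the 1-day groups by array set. With arrays scaled to the same median Nde1 had -0.02, so that the sign held for the other 9 brightest probe sets.

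Between the time points Aspm, Nde1 and Cenpj fell in normalized signal when knockdowns and controls were averaged, with negative values in each; on arrays scaled to the same median the signs are positive. Aspm had 8.96, 10.24 and 9.35 in the 5-day knockdowns and 9.15, 9.22 and 9.69 in the 5-day controls, against 10.26, 10.85 and 10.90 in the 1-day knockdowns and 10.29, 10.54 and 11.09 in the 1-day controls. The 6 arrays at 5 days all lay below the 6 at 1 day, the closest pair being 5-day knockdown 2 and 1-day knockdown 1. The share of all kept probe sets that separate in this way is not given here, for Aspm or for Nde1 and Cenpj below. By limma 33.4% of all kept probe sets had an unadjusted p under 0.05 in the average of both groups. In order of mean level the 1-day knockdowns (10.67 ± 0.35) and 1-day controls (10.64 ± 0.41) came above the 5-day knockdowns (9.52 ± 0.65) and the 5-day controls (9.35 ± 0.29; SD, n = 3 each), and within a time point the groups did not differ beyond their spread.

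Averaged over knockdowns and controls, Aspm changed by -1.22 on the log2 scale (SE 0.25, limma adjusted p = 0.00974, 6 against 6 arrays), and the exact two-sided permutation p was 0.00216, the smallest that 6 against 6 can give. This average was added to the planned comparisons after the data had been seen. In the planned comparisons Aspm changed by -1.15 in the knockdowns (limma adjusted p = 0.0846) and by -1.29 in the controls (limma adjusted p = 0.0881), with no overlap between time points in either, and was not called.

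Nde1 had 9.40, 8.45 and 9.32 in the 5-day knockdowns and 9.09, 9.15 and 9.27 in the 5-day controls, against 10.23, 10.07 and 9.95 in the 1-day knockdowns and 10.25, 9.78 and 10.63 in the 1-day controls. Again no 5-day array reached the lowest 1-day array. The averaged change was -1.04 (SE 0.21, limma adjusted p = 0.00855, exact permutation p = 0.00216). Knockdowns and controls alone gave -1.03 (limma adjusted p = 0.0677) and -1.05 (limma adjusted p = 0.0923). Cenpj had 8.17, 8.47 and 8.39 in the 5-day knockdowns and 8.25, 8.42 and 8.41 in the 5-day controls, against 9.14, 8.75 and 8.90 in the 1-day knockdowns and 9.11, 8.93 and 9.10 in the 1-day controls. The spread within a time point was narrow and the time points did not overlap. The averaged change was -0.64 (SE 0.14, limma adjusted p = 0.0105, exact permutation p = 0.00216), with -0.59 in the knockdowns (limma adjusted p = 0.0952) and -0.69 in the controls (limma adjusted p = 0.0881).

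These 3 changes are relative to the other probe sets of an array, and their sign depends on the scaling. The deposited intensities, before normalization, averaged 1002 at 5 days and 846 at 1 day for Aspm, 785 and 583 for Nde1, and 405 and 296 for Cenpj. With each array scaled to the same median and no quantile normalization, the median kept probe set changed by 0.72, and Aspm by 0.07, Nde1 by 0.24 and Cenpj by 0.28, none called; 4 of 14 member probe sets were called in that fit, against 52.2% of the array. Against that median they stood at -0.64, -0.48 and -0.44. With this scaling Cep63 (0.85, limma adjusted p = 0.0312) was called higher and Cep135 (-0.70, limma adjusted p = 0.0253) lower at 5 days. Against the median change they stood at 0.13 and -1.42, and 55.4% of kept probe sets had a lower change than Cep63. Cep63 differed by 1.38 from the strong and by 0.31 from the weak set of 1-day arrays. Chip lot and time cannot be told apart. In the knockdowns scanner and time cannot be told apart either. The 5-day knockdowns and 5-day control 1 were on scanner 1, and 5-day controls 2 and 3 and all 1-day arrays on scanner 2. The recorded station also differed between the time points.

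**Figure D3:**
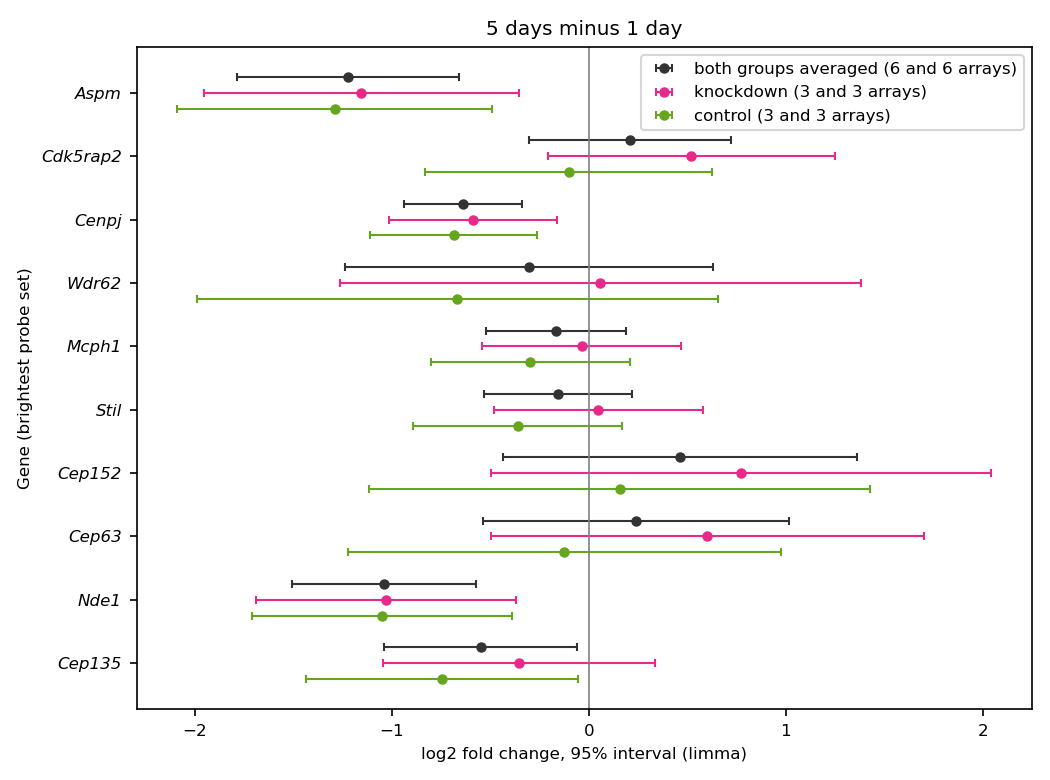
Log2 fold change of the brightest probe set of each gene, 5 days minus 1 day, with 95% limma intervals, for both groups averaged (black, 6 and 6 arrays), knockdowns (pink) and controls (green, 3 and 3 arrays each). After quantile normalization the intervals of Aspm, Cenpj and Nde1 lie below 0 in all 3 comparisons; with arrays scaled to the same median their averaged values are 0.07, 0.28 and 0.24.

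Over the 14 kept probe sets, 0 were called in the knockdowns, where 5.98% of 27022 were called, and 0 in the controls, where 3.28% were called; 4 and 6 of them had an unadjusted p under 0.05. In the average of both groups 5 of 14 were called, all lower at 5 days, against 18.1% of the array. The other 2 were further probe sets of Aspm and Cdk5rap2. Aspm 1458873_at had 6.54, 6.24 and 6.96 in the 5-day knockdowns and 6.75, 6.52 and 6.83 in the 5-day controls, against 7.93, 6.97 and 7.15 in the 1-day knockdowns and 7.90, 7.08 and 8.18 in the 1-day controls. It changed by -0.89 (limma adjusted p = 0.0316), and by -0.84 with arrays scaled to the same median (limma adjusted p = 0.00935). Of the other Aspm probe sets, 1452459_at changed by -1.07 (limma adjusted p = 0.0633) and 1458560_at by -0.10 (limma adjusted p = 0.852). The dim 1441520_at changed by -1.04 (limma adjusted p = 0.0845, fitted without the filter), so 4 of the 5 had values of -0.89 or lower. The size depended on the 1-day array set for the further probe sets. Against the strong and the weak set, 1458873_at differed by -0.42 and -1.36 and 1452459_at by -0.32 and -1.83. The values were -0.38 and -1.70 for 1441520_at, and 0.64 and -0.84 for 1458560_at.

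The probe sets of Cdk5rap2 disagreed. Cdk5rap2 1443976_at had 5.99, 6.85 and 5.89 in the 5-day knockdowns and 5.50, 6.19 and 6.30 in the 5-day controls, against 6.69, 8.25 and 7.60 in the 1-day knockdowns and 6.87, 7.25 and 6.65 in the 1-day controls. It changed by -1.10 (limma adjusted p = 0.0294), and by -1.18 with arrays scaled to the same median (limma adjusted p = 0.00455). The brighter 1452618_at changed by 0.21 (limma adjusted p = 0.544), and between the 1-day array sets the pair ran in opposite directions, 0.97 for the dimmer and -0.98 for the brighter. No direction is given for Cdk5rap2 as a gene.

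The 1-day arrays with strong and with weak hybridisation controls serve as separate references for the brightest probe set of each member. Against the strong and the weak set, the 6 arrays at 5 days differed by -1.33 and -1.12 for Aspm, by -0.82 and -1.26 for Nde1 and by -0.51 and -0.76 for Cenpj, the same sign both times. Cep152 differed by 1.31 and -0.38, Cep63 by 0.95 and -0.48, Wdr62 by 0.59 and -1.20, and Cdk5rap2 by 0.70 and -0.28, so for these 4 the sign depended on the set. With arrays scaled to the same median, the differences from the strong and the weak set were 0.07 and 0.08 for Aspm, 0.52 and -0.05 for Nde1 and 0.43 and 0.12 for Cenpj. Cep135 differed by -0.23 and -0.87. It had 6.62, 6.08 and 6.57 in the 5-day knockdowns and 5.86, 6.65 and 6.76 in the 5-day controls, against 7.16, 6.60 and 6.57 in the 1-day knockdowns and 7.23, 6.80 and 7.48 in the 1-day controls, and its averaged change of -0.55 was not called (limma adjusted p = 0.111). With the array set added to the fit as a term, 5 of 14 member probe sets were called in the knockdowns, against 23.4% of the array, and 6 in the controls, against 23%. All were lower at 5 days, with Aspm, Nde1 and Cenpj in both.

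**Figure D4:**
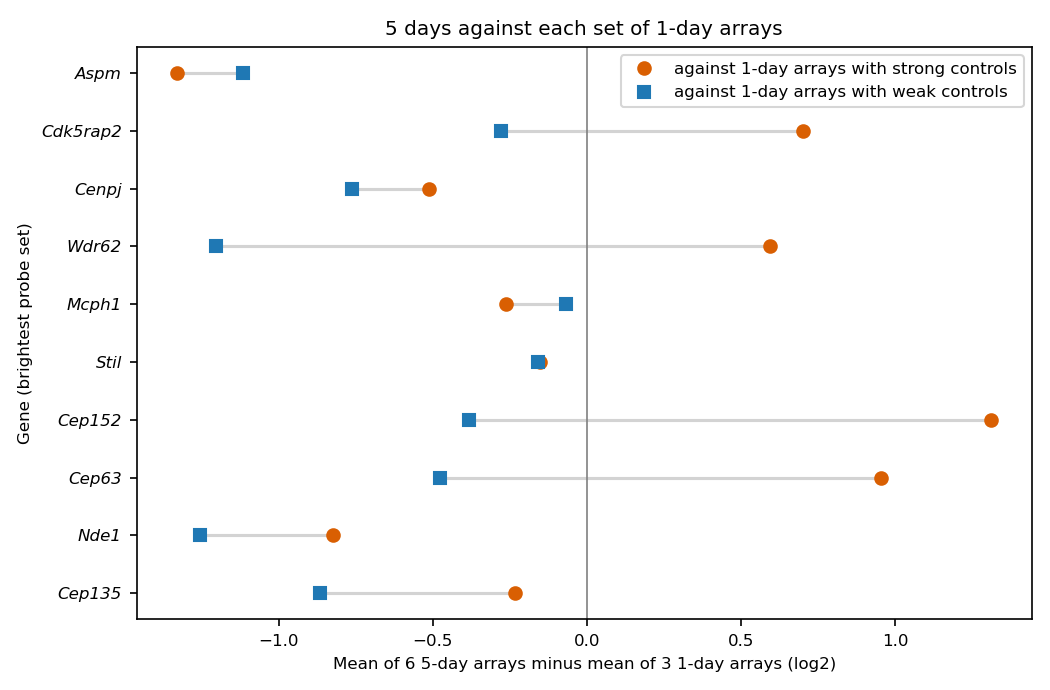
Mean log2 signal of the 6 arrays at 5 days minus that of the 3 arrays at 1 day with strong (orange circles) or weak (blue squares) hybridisation controls, for the brightest probe set of each gene. Aspm, Nde1 and Cenpj lie below 0 against both sets in quantile-normalized signal; with arrays scaled to the same median Aspm and Cenpj lie above 0 against both sets, and Nde1 at 0.52 and -0.05. Cep152, Cep63, Wdr62 and Cdk5rap2 lie on both sides of 0.

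Stil and Mcph1, which times chromosome condensation and acts in the DNA damage response, were not called between the time points (limma adjusted p = 0.535 and 0.489). Stil averaged 8.17 ± 0.32 in the 5-day knockdowns and 7.86 ± 0.29 in the 5-day controls, against 8.12 ± 0.13 in the 1-day knockdowns and 8.22 ± 0.20 in the 1-day controls (SD, n = 3 each). Mcph1 averaged 7.56 ± 0.23 and 7.35 ± 0.27 in the 5-day knockdowns and controls, against 7.60 ± 0.26 and 7.64 ± 0.06 in the 1-day knockdowns and controls. Their averaged changes were -0.16 (95% interval -0.53 to 0.22) and -0.17 (-0.52 to 0.19), and 0.43 and 0.13 with arrays scaled to the same median.

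The genes most like Aspm over the 12 arrays were mitotic genes and a transcription factor. By the mean absolute difference of centred log2 signals, the closest of 12262 genes were Cenpk, a kinetochore protein, at 0.16, then Gli2, a Hedgehog transcription factor, and Shcbp1 at 0.17 each, then Cdca8 and Incenp, both of the chromosomal passenger complex, at 0.17 and 0.18. The median gene stood at 0.82. Among the members Cenpj ranked 509 and Nde1 597, with differences of 0.43 and 0.44. Stil, Mcph1 and Cep135 ranked 1375, 1439 and 1675. Cdk5rap2 ranked 4556, Cep63 6050, Wdr62 7312 and Cep152 9229. Wdr62 at 0.89 and Cep152 at 1.05 were both farther from Aspm than the median gene. The measure depends on how much a gene varies as well as on its pattern, so these ranks do not show likeness of pattern alone. Over the 12 arrays the SD was 0.25 for Stil and 0.22 for Mcph1, against 0.75 for Wdr62, 0.72 for Cep152 and 0.75 for Aspm. These values describe arrays that share a time point and a hybridisation set.

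The other genes of the pathway were taken from lists chosen by function. The lists share genes, so their counts overlap. Sass6, Pcnt, Plk4, Tubgcp4 and Cit stand in the microcephaly list and also in the centriole or the spindle list. Tpx2 and Kif11 stand in the spindle list and in that of cycling cells. Of 21 measured centriole and pericentriolar partners, 1 was called higher and 1 lower at 5 days in the average of both groups: Nin, which anchors microtubules at the mother centriole, rose by 1.17 (2.19 with arrays scaled to the same median), and Nedd1, which targets gamma-tubulin, had -0.62 (0.42 with that scaling). Plk4 and Sass6, which act with Stil and Cep152 in centriole duplication, had 0.02 and -0.33 and were not called. Of 17 spindle and dynein partners 6 were called lower and 0 higher, although with arrays scaled to the same median 0 were called lower, 3 of 17 lay below 0 and 8 of 17 below the median change of 0.72. After quantile normalization the largest changes were those of Tpx2 at -1.50, Nusap1 at -1.25, Aurka at -1.18 and Tacc3 at -1.16. Of 26 other genes of microcephaly or related growth disorders 6 were called lower and 1 higher, while with that scaling 0 were called lower, 4 of 26 lay below 0 and 10 of 26 below the median change. The largest changes were those of the replication licensing factors Cdt1 at -1.43 and Cdc6 at -1.16, the kinetochore scaffold Knl1 at -1.40 and the condensin subunit Ncapd2 at -1.16, while Wdfy3, an autophagy adaptor, rose by 0.67 (1.99 with that scaling). Over all genes 21.4% were called.

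Of the genes of cycling cells 15 of 19 were called lower at 5 days and 0 higher, with a median of -1.07 against 0.14 over all genes. Mcm2 had -1.67, Tpx2 -1.50, Ccnb2 -1.45 and Bub1 -1.44. With arrays scaled to the same median 0 of the 19 were called lower and 9 lay below 0, but 19 of 19 lay below the median change of 0.72. In bulk samples fewer cycling cells and less RNA per cell cannot be told apart. In the knockdown comparisons 0 genes of these 4 lists were called at either time point.

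Markers of several cell types moved with time beside Aspm, Nde1 and Cenpj. The mean log2 level of the 19 cycling genes ran from 9.22 to 9.72 at 5 days, against 10.26 to 10.95 at 1 day, and that of 8 intermediate progenitor markers from 9.18 to 9.83, against 10.53 to 11.05. Of these 8, 6 were called lower, and 3 with arrays scaled to the same median, with Neurog2 at -2.28 and Eomes at -2.03 after quantile normalization. Interneuron markers were called higher in 7 of 10, oligodendrocyte precursor markers in 4 of 6, microglial markers in 3 of 11 and postmitotic neuron markers in 4 of 13, against 21.4% of all genes called in either direction. Of the postmitotic neuron markers 1 was called lower, Bcl11b at -0.73, and radial glial markers were called in both directions, 3 higher and 4 lower of 10. All of these markers had signal above 0 on every array, but so did the member probe sets too dim to pass the filter. Signal above 0 therefore does not show that a marker or its cell type was present. In the remaining marker lists, astrocyte markers were called higher in 3 of 7 (42.9%) and meningeal and fibroblast markers in 2 of 9 (22.2%). Endothelial and pericyte markers were called higher in 1 of 12 (8.33%), and the 1 measured erythroid gene was called lower. The microglial share of 27.3% and the meningeal share lay near the 21.4% of all genes. The part of cell makeup in the changes of Aspm, Nde1 and Cenpj was not tested.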

How the data were processed

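RNA of 12 samples was hybridised to Affymetrix 3′ expression arrays after biotin labelling, per the labels. The authors deposited 1 intensity per probe set and array, which looked linear; no source used here gives its probe summary, background correction or scaling. From these intensities log2(value + 16) was computed after quantile normalization of the 12 arrays. Of the probe sets other than the 64 controls, the brightest 60% by mean (27022) entered the fit. Genes were named from the platform annotation, updated through Entrez IDs: 34958 of 45101 probe sets had 1 symbol, 932 several and 9211 none. Group means were fitted with limma 3.58.1 in R 4.3.3 on all 12 arrays (4 groups, 8 residual degrees of freedom), with Benjamini-Hochberg adjustment over the kept probe sets and a threshold of 0.05; the fit was tested on simulated data. Single values were compared by exact two-sided permutation. The number of arrays limits the precision.

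The members, the lists and the tests were chosen with earlier results of these data known. All 10 members are named; from each list the text names up to 4 called genes of largest change, or others for their role beside a member, and the 5 genes nearest to Aspm by mean absolute difference. Hybridisation-control sets came from bioB. Replicate numbers of the titles were checked for pairing. Correlations of same-numbered deviations were 0.92, 0.90 and -0.42 at 1 day and -0.13, -0.02 and 0.10 at 5 days. Differently numbered 1-day samples of the same hybridisation-control set gave 0.87 (knockdown 3 and control 2) and 0.51 (knockdown 1 and control 3). The check therefore cannot decide on pairing at 1 day, and the numbers were not taken to pair samples. Alternatives covered normalization, pseudocounts of 64 and 1, no filter, each array left out, blocks, and each time point alone.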

Additional observations from a re-analysis of the deposited data

Results flagged for a closer look

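The dim second probe set of Cep63, 1446482_at, which did not pass the filter, had knockdown effects of opposite sign at the 2 time points. Its log2 signal was 5.61, 6.38 and 5.94 in the 5-day knockdowns, against 5.32, 5.34 and 5.59 in the 5-day controls. It was 6.02, 5.79 and 5.77 in the 1-day knockdowns, against 6.31, 6.40 and 6.06 in the 1-day controls. The groups did not overlap at either time (exact two-sided permutation p = 0.1 at each, the smallest that 3 against 3 can give). The share of all probe sets that separate in this way is not given here. The highest 5-day value was that of knockdown 2, the array with the high 3′ to 5′ ratio. Deposited signal averaged 20.1 in the 5-day controls. At 1 day the knockdown difference was -0.62 among strong-control and -0.17 among weak-control arrays. The effect was 0.56 at 5 days and -0.40 at 1 day, a difference of 0.96 (unadjusted p = 0.0177; limma adjusted p = 1 in the fit without the filter). The brighter Cep63 probe set differed by 0.73 with overlapping groups.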

How the results depend on the processing

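No member probe set was called in the knockdown comparisons under any alternative. Without 1 array at a time, calls between the time points ran from 0 to 2 in the knockdowns, 0 to 0 in the controls and 3 to 5 in the average of both groups, while all calls of the array ran from 341 to 7727, 247 to 614 and 2975 to 9345 of 27022. Without 1-day knockdown 1 the array had 7727 calls in the knockdowns and 9345 in the average, without 1-day knockdown 3 341 and 3071; the controls had 247 without 5-day control 2, 302 without 1-day control 3. In the average Aspm, Nde1 and Cenpj were called whichever 1 of the 12 arrays was left out (limma adjusted p up to 0.0349). With arrays scaled to the same median 1 was called in the knockdowns (Cdk5rap2 1443976_at), 1 in the controls (Aspm 1458873_at) and 4 in the average, against 38.5%, 34.5% and 52.2% of the array. With the hybridisation-control set as an added term, chosen after seeing the data, 5 were called in the knockdowns, 6 in the controls and 7 in the average, against 23.4%, 23% and 43.9%. With the replicate number as a block (replicate block) 1 was called in the knockdowns, Cdk5rap2 1443976_at, 0 in the controls and 5 in the average, against 7.97%, 3.66% and 21.2%; the block changed no knockdown call.

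The signs of brightest probe sets changed as follows. With arrays scaled to the same median, the change between time points in the knockdowns was 0.10 for Aspm, 0.30 for Cenpj and 0.23 for Nde1, with 0.29 for Mcph1 and -0.19 for Wdr62, in the controls 0.050, 0.26 and 0.25, with 0.22 for Stil, 0.24 for Cdk5rap2 and 0.59 for Cep63, and in the average 0.075, 0.28 and 0.24, with 0.13 for Mcph1 and 0.43 for Stil; the difference of the knockdown effects was -0.021 for Nde1; Cep135 had 0.0080 for the knockdown at 5 days, and also with a pseudocount of 1 (0.0081). With the hybridisation-control set as a block the 1-day knockdown effect was -0.048 for Aspm, 0.058 for Cep152 and 0.0097 for Nde1. With scanner as a block the 5-day effect was 0.091 for Cenpj, 0.55 for Wdr62 and 0.56 for Cep135. Leaving out 1 array, the 1-day effect ran from -0.15 to 0.25 for Aspm, -0.18 to 0.084 for Mcph1, -0.17 to 0.011 for Stil and -0.35 to 0.07 for Nde1. The 5-day effect ran from -0.20 to 0.44 for Aspm, -0.034 to 0.17 for Cdk5rap2, -0.079 to 0.073 for Cenpj, -0.33 to 0.24 for Wdr62, -0.14 to 0.30 for Cep152, -0.025 to 0.41 for Cep63, -0.29 to 0.19 for Nde1 and -0.28 to 0.17 for Cep135. The averaged time change ran from -0.57 to 0.0057 for Wdr62 and -0.018 to 0.45 for Cep63. The cause was not tested. Dim probe sets such as those of Wdr62 and Cep135 limit what can be seen of their changes.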
